A study of Homo sapiens with 18 samples.

Results

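The IL6-type cytokine genes described here are 10 of the 58051 genes measured in 18 RNA sequencing libraries of 2 human melanoma cell lines. They were chosen by the measured levels of LIF, which fell in SKMEL2 and rose in SKMEL30 after 18 h of PPP2R3B induction, and the other 9 are relatives of LIF (IL6, IL11 and CLCF1), the receptor chains of the family (LIFR, IL6ST, OSMR and IL6R), the transcription factor STAT3 and the feedback gene SOCS3. The oncogene NRAS is altered at codon 61 in each of them. Both were made stable for a lentiviral tet-ON vector, pTRIPZ-PPP2R3B, in which doxycycline drives a Myc-tagged copy of PPP2R3B, the gene of a regulatory subunit of the phosphatase PP2A. Each line had 3 uninduced libraries, 3 after 6 h of doxycycline and 3 after 18 h, and all 18 carried the vector. No library of doxycycline without the PPP2R3B insert was analysed here, so an effect of the drug and an effect of PPP2R3B cannot be told apart. Each line is represented by a single stable derivative, and the labels do not say whether the 3 libraries of a group came from separate cultures, so p-values measure only the spread between these libraries.

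Cytokines of the IL6 family are secreted proteins that signal through receptor complexes sharing the chain gp130, which IL6ST encodes. LIF binds gp130 together with the LIF receptor, oncostatin M binds gp130 with either the LIF receptor or the oncostatin M receptor, and IL6 first binds its own receptor chain, IL6R, before it engages gp130. The receptors activate JAK kinases, which phosphorylate STAT3, and STAT3 turns on SOCS3, whose product shuts the receptor complex off again. In melanoma the family is known for cytokines made by the tumour cells themselves and for growth responses that differ between early and advanced tumours. Levels in bulk RNA do not tell fewer producing cells from less RNA per cell.

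Totals ran from 13402645 to 22383470 counts per library. PPP2R3B checked the labels: its lowest induced library held 343 CPM (counts of the gene scaled to a fixed library total) and its highest uninduced library 24.4 CPM, and it rose by 4.38 to 4.88 on the log2 scale in the 4 comparisons with uninduced cells. The 7 melanocyte lineage markers summed to between 3808 and 4558 CPM in SKMEL2 and between 8674 and 9198 CPM in SKMEL30, and TYRP1 was the low one in SKMEL2, at a mean of 4.06 CPM in uninduced cells against 1283 CPM. SKMEL30 6 h replicate 3 stood apart by epidermal keratin RNA, with 803 counts of KRT5 where the 3 uninduced SKMEL30 libraries held 3 to 6, and SKMEL30 18 h replicate 3 held 118. SKMEL30 6 h replicate 1 held 38. The summed level of the 4 keratinocyte markers ran from 17.4 to 20.7 CPM in uninduced SKMEL30, from 19.7 to 83.4 CPM at 6 h and from 18.3 to 30.5 CPM at 18 h, with KRT1 at 0 throughout. SKMEL2 libraries held 142, 105 and 82 counts of KRT5 uninduced, 3, 0 and 61 at 6 h, and 133, 134 and 0 at 18 h. No fit left SKMEL2 libraries out for their keratin RNA. The part of this RNA in the results was not tested. Values from SKMEL30 are also given without the 2 libraries with the most keratin RNA, 6 h replicate 3 and 18 h replicate 3, for LIF, CLCF1, LIFR and IL6ST, and for STAT3, SOCS3 and IL6R they moved by at most 0.02 on the log2 scale.

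LIF, the leukaemia inhibitory factor (chromosome 22, 30240453 to 30246759, GRCh38.p14), was the most abundant cytokine of the set per kb of transcript in both lines. In SKMEL2 it measured 13.1, 15.6 and 15.0 CPM in the uninduced libraries, 13.5, 13.0 and 14.1 CPM after 6 h and 11.4, 10.9 and 10.9 CPM after 18 h. All 3 of the 18 h libraries lay below all 6 others. In SKMEL30 it measured 42.1, 44.2 and 46.8 CPM uninduced, 49.4, 47.6 and 53.0 CPM after 6 h and 55.7, 57.0 and 60.8 CPM after 18 h. The 3 groups of SKMEL30 did not overlap and lay in the order of time. LIF was chosen by its 18 h values, so these separations are a description. Of all genes, 14.3% did not overlap between 18 h and uninduced libraries in SKMEL2, and 16.0% in SKMEL30. Between 6 h and uninduced libraries of SKMEL30 the share was 11.3%.

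On the log2 scale LIF stood at -0.40 ± 0.09 (standard error, 3 against 3 libraries) at 18 h in SKMEL2 and at 0.38 ± 0.06 in SKMEL30, a difference between the lines of -0.78 ± 0.10. These are the values that chose the genes, so they are a description and no test is attached to them. Without the 2 SKMEL30 libraries with the most keratin RNA the SKMEL30 value was 0.35 and the difference -0.74. The 18 h change was 1.32-fold downward in SKMEL2 and 1.31-fold upward in SKMEL30, so the 2 lines moved by like amounts in opposite directions.

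At 6 h, a time that the choice did not use but that shares its uninduced libraries, the change of LIF did not pass the test in either line. The log2 change was -0.10 ± 0.09 in SKMEL2 (edgeR adjusted p = 0.989) and 0.18 ± 0.06 in SKMEL30 (edgeR adjusted p = 0.501, unadjusted 0.00731), and without the 2 libraries with the most keratin RNA the latter was 0.13 (edgeR adjusted p = 0.708). The difference between the lines at 6 h was -0.28 ± 0.10 (edgeR adjusted p = 0.902, unadjusted 0.0109). At 6 h the point estimates had the same signs as at 18 h, at less than their size.

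**Figure D1:**
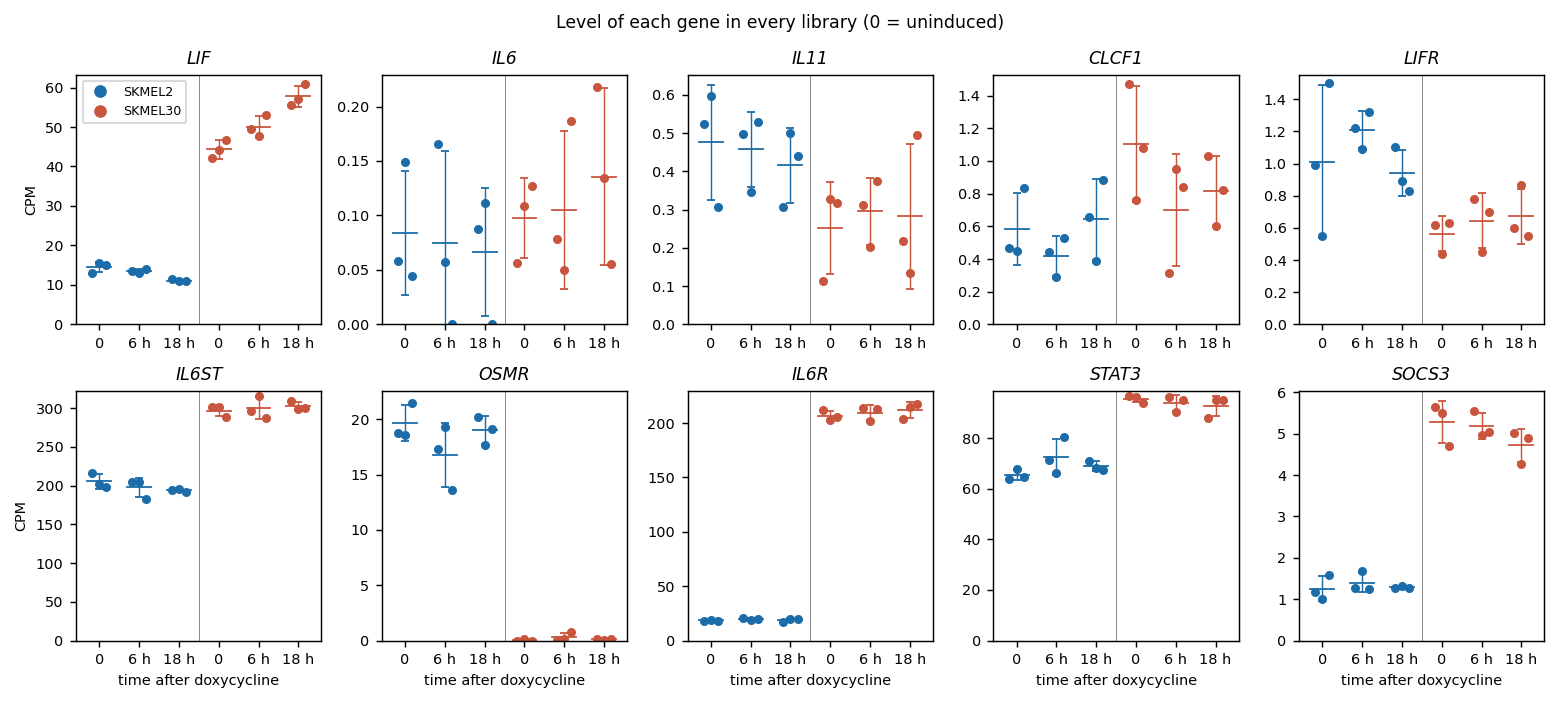
Level of each of the 10 genes in every library, in CPM on a linear axis from 0, by line and time after doxycycline (0 is uninduced). Points are libraries, the horizontal line is the mean of 3 libraries and the bar is 1 SD. LIF steps down in SKMEL2 to 11.1 CPM and up in SKMEL30 to 57.8 CPM. The difference between the cell lines is larger than these steps (14.6 against 44.4 CPM uninduced). It is also larger than the induction changes for IL6R, OSMR, SOCS3, STAT3 and IL6ST.

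The other cytokines were scarce. IL6, the founding member and an inflammatory cytokine, had 0 to 3 counts in the 9 SKMEL2 libraries and 1 to 4 in the 9 SKMEL30 libraries, and the 3 uninduced libraries of each line summed to 5 counts. The ratio of SKMEL2 to SKMEL30 for IL6 was 0.926, with an exact 95% interval from 0.213 to 4.02 that covers counting error only, so no difference was detectable at this depth. IL11, a cytokine of bone marrow, bone and fibrosis, had 6 to 12 counts in SKMEL2 and 2 to 9 in SKMEL30. Its ratio in uninduced cells was 1.99 (28 against 13 counts, exact 95% interval 1.00 to 4.19). Both genes fell under the filter on low counts in every comparison and were not tested.

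CLCF1, a cytokine that signals through the receptor for ciliary neurotrophic factor, passed the filter with few counts, from 4 to 26 per library. It measured 0.466, 0.448 and 0.836 CPM in uninduced SKMEL2, and 1.47, 0.764 and 1.08 CPM in uninduced SKMEL30, so the lines overlapped. Induction gave log2 changes of -0.50 ± 0.43 at 6 h and 0.12 ± 0.39 at 18 h in SKMEL2, and of -0.57 ± 0.38 and -0.41 ± 0.37 in SKMEL30 (-0.69 and -0.40 without the 2 libraries with the most keratin RNA). None passed the test (edgeR adjusted p from 0.813 to 0.992), and the standard errors were close to the estimates or larger.

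Among the receptors, IL6ST (chromosome 5, 55935095 to 55994963), the shared signalling chain, had the highest level per kb of transcript in SKMEL2 and came next after IL6R in SKMEL30. It measured 217, 202 and 198 CPM in uninduced SKMEL2, 205, 205 and 183 CPM at 6 h, and 195, 196 and 192 CPM at 18 h. In SKMEL30 the uninduced libraries measured 301, 301 and 289 CPM, those at 6 h 297, 316 and 288 CPM, and those at 18 h 309, 299 and 300 CPM. The 18 h libraries of SKMEL2 all lay below its uninduced libraries, by a narrow margin. The log2 change there was -0.08 ± 0.06 (edgeR adjusted p = 0.987), and in the other 3 comparisons it ran from -0.05 to 0.03. Without the 2 libraries with the most keratin RNA it was 0.05 at 6 h and 0.04 at 18 h in SKMEL30. This was the only one of the 7 members other than LIF that were tested in SKMEL2 whose 18 h and uninduced groups did not overlap, where 14.3% of all genes did not overlap.

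IL6R (chromosome 1, 154405343 to 154469450), the chain that binds IL6, set the lines apart without overlap. Its 9 SKMEL2 libraries measured between 17.4 and 20.4 CPM and its 9 SKMEL30 libraries between 202 and 218 CPM. Induction moved it by 0.02 to 0.07 on the log2 scale, with a standard error of 0.03 in SKMEL30 and 0.08 in SKMEL2. No induction comparison of IL6R passed the test.

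OSMR (chromosome 5, 38846012 to 38945579), the oncostatin M receptor, had the opposite distribution between the lines. In SKMEL2 it measured 18.8, 18.6 and 21.5 CPM uninduced, 17.3, 19.3 and 13.6 CPM at 6 h, and 20.2, 17.7 and 19.1 CPM at 18 h. In SKMEL30 the libraries held 0, 2 and 0 counts uninduced, 1, 2 and 16 counts at 6 h, and 2, 1 and 3 counts at 18 h. The library with 16 counts was 6 h replicate 3, the library with the most keratin RNA. A count of 0 allows up to 3 counts. OSMR was not tested within SKMEL30, and in SKMEL2 its log2 change was -0.23 ± 0.11 at 6 h (edgeR adjusted p = 0.989) and -0.05 ± 0.11 at 18 h.

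LIFR (chromosome 5, 38474668 to 38608403), the chain that LIF itself binds, was close to the limit of detection in both lines. It had 11 to 34 counts per library in SKMEL2 and 8 to 15 counts in SKMEL30. The log2 changes with induction were 0.24 ± 0.34 and -0.11 ± 0.34 at 6 and 18 h in SKMEL2, and 0.17 ± 0.36 and 0.24 ± 0.36 in SKMEL30 (0.07 and 0.37 without the 2 libraries with the most keratin RNA). None passed the test, and at these counts the standard error was larger than the estimate in each.

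Sequence upstream of OSMR and IL6R is shown because among the 10 members these 2 receptors differed most between the lines, in opposite directions. Each is the 250 bases before the RefSeq start site on GRCh38.p14, plus strand, with the CpG dinucleotides in capitals. OSMR lies at chr5:38845762-38846011 and IL6R at chr1:154405093-154405342.
OSMR: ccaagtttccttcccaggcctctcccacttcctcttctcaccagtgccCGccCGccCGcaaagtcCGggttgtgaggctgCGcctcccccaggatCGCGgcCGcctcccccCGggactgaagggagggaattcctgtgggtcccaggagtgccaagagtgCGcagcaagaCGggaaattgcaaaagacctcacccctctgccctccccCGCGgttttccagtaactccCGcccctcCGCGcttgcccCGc
IL6R: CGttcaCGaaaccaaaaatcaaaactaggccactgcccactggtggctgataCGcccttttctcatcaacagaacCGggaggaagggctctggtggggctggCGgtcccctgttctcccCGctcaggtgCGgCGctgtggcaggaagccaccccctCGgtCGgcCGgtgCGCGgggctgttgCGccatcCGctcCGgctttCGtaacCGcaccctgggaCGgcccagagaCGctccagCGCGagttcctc
The OSMR stretch holds 17 CpG and the IL6R stretch 22, where the median over all such windows was 11. Of all windows, 39% held at least as many as OSMR and 28% at least as many as IL6R, so neither is unusual for a promoter. Methylation was not measured.

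Motifs for transcription factors that act in this pathway were searched on both strands in the RefSeq windows of the 8 members that matched, from 250 bases before to 50 after each start site. LIF and CLCF1 did not match an entry. The letters were TTCNNNGAA for STAT factors and CCGGAAG for ETS factors, AP-1 was searched as TGA and TCA with any 1 base between them, and NF-kB by its consensus, and no 2 of the matches overlapped. The matches are given with the motif in capitals and the gene's strand, and each line gives the distance of the motif's first base from the start site.
LIFR, STAT, -165: ccattactagTTCCTTGAAccacaatccaa
LIFR, STAT, -182, at another start site: gctttggagtTTCATCGAAaggtctttaaa
IL6R, AP-1, 38: tccgccgctcTGAGTCAtgtgcg
OSMR, AP-1, 4: gccccgcagcTGATTCAtagccccggcccg
IL11, AP-1, -96: gcagggagggTGAGTCAggatgtgtcaggc
IL6, NF-kB, -73: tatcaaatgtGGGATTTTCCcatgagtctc
The windows of IL6ST, STAT3 and SOCS3 held none of these letters, and no member window held the ETS motif. Of 35116 promoters, 7.66% held the STAT motif, 7.71% AP-1, 1.91% NF-kB and 10.3% ETS. A match is a description of the letters and not a measured binding site.

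STAT3 and SOCS3, the transducer and its feedback inhibitor, did not change with induction beyond the spread of the libraries. STAT3 (chromosome 17, 42313324 to 42388442) measured 64.1, 67.9 and 64.7 CPM in uninduced SKMEL2, 71.3, 66.3 and 80.4 CPM at 6 h, and 71.1, 68.2 and 67.4 CPM at 18 h. In SKMEL30 it stayed between 88.2 and 96.7 CPM in all 9 libraries. Its log2 changes ran from -0.05 to 0.15 over the 4 comparisons.

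SOCS3 (chromosome 17, 78356778 to 78360925), a gene that STAT3 activates directly, measured 1.17, 0.995 and 1.58 CPM in uninduced SKMEL2, 1.28, 1.67 and 1.25 CPM at 6 h, and 1.27, 1.33 and 1.27 CPM at 18 h. In SKMEL30 it measured 5.64, 5.51 and 4.69 CPM uninduced, 5.54, 4.97 and 5.05 CPM at 6 h, and 5.01, 4.27 and 4.89 CPM at 18 h. In both lines the groups overlapped at both times. At 18 h, when LIF stood at its extremes, the log2 change of SOCS3 was 0.04 ± 0.25 in SKMEL2 (edgeR adjusted p = 0.995) and -0.16 ± 0.13 in SKMEL30 (edgeR adjusted p = 0.773).

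Taking the members other than LIF together, none of the 7 tested in SKMEL2 and none of the 6 tested in SKMEL30 passed an adjusted p of 0.05 in edgeR at either time, and DESeq2 called none as well. The share of all genes called was 0.0124% at 6 h and 0.0124% at 18 h in SKMEL2, and 0.206% at 6 h and 0.293% at 18 h in SKMEL30, shares at which a count of 0 among 6 or 7 genes is no result about them. At an unadjusted p under 0.05 there were 0 members in each of the 4 comparisons, beside 543 and 750 of the 16120 genes in SKMEL2 and 968 and 1374 of the 15026 in SKMEL30 at 6 and 18 h, so 0 members is near the background. Libraries of the 2 groups did not overlap for 0 of 7 members at 6 h in SKMEL2 (6.80% of all genes) and for 0 of 6 at 6 h (11.3%) and 18 h (16.0%) in SKMEL30. The median log2 change of these members was 0.07 and 0.04 in SKMEL2 at 6 and 18 h, and -0.01 and -0.01 in SKMEL30, where the median of all genes was 0.00 in each case.

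The difference between the lines in the response was tested directly for 7 members. At 6 h none passed (edgeR, 2 at an unadjusted p under 0.05, OSMR and STAT3), where 0% of all genes passed, 842 did at an unadjusted p under 0.05, and DESeq2 called 0. The 6 h difference of STAT3 was 0.17 on the log2 scale, and 0.09 to 0.25 with single libraries left out. Its highest SKMEL2 library, at 80.4 CPM, was 6 h replicate 3. At 18 h none of the 7 passed either, and 0 did at an unadjusted p under 0.05. Of all 17133 genes tested, 884 reached that unadjusted p and 0.00584% passed, and since the genes were chosen on this contrast nothing is read from that share. The point estimates at 18 h were 0.20 ± 0.25 for SOCS3, 0.12 ± 0.08 for STAT3, -0.11 ± 0.07 for IL6ST and 0.01 ± 0.08 for IL6R. CLCF1 stood at 0.53 ± 0.57 and LIFR at -0.35 ± 0.50. For OSMR no fitted difference is given at either time, because its uninduced SKMEL30 libraries held 2 counts in all and its 6 h value rests on the 16 counts of replicate 3.

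**Figure D2:**
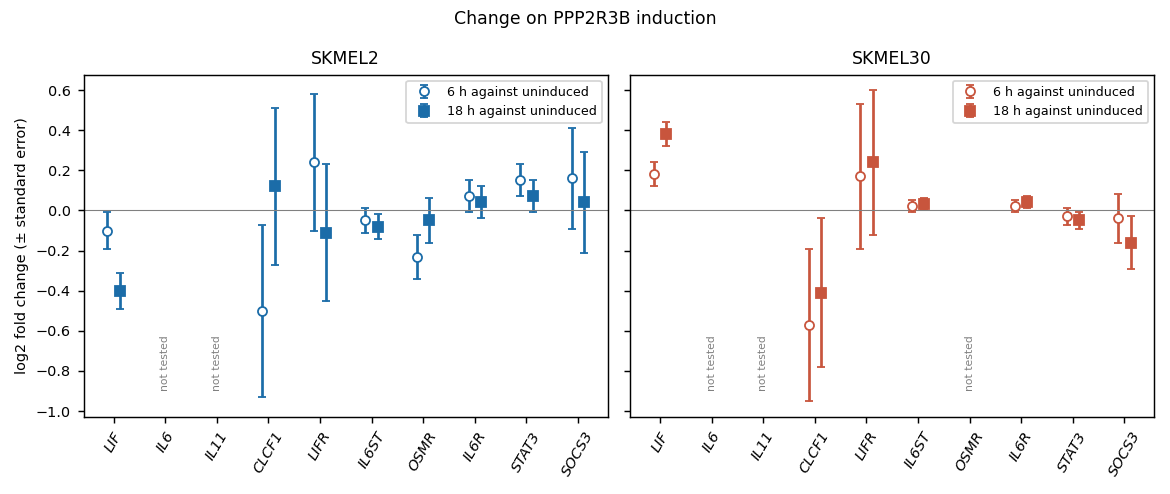
Log2 fold change on induction against uninduced cells for the 10 genes, in SKMEL2 (left) and SKMEL30 (right), at 6 h (open) and 18 h (filled), with bars of 1 standard error; genes under the filter on low counts are written as not tested. LIF lies at -0.40 and 0.38 at 18 h, and the widest bars are those of CLCF1 and LIFR, the genes with the fewest counts among those tested.

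Before induction the 2 lines differed in the level of most members. OSMR came past the filter on low counts only through SKMEL2, where it is high, so it is given by its counts with no test. The other 6 members tested passed (edgeR), LIFR higher in SKMEL2 and IL6R, SOCS3, CLCF1, STAT3 and IL6ST higher in SKMEL30. Differences between these lines were common: 75.9% of all genes passed, with 40.1% higher in SKMEL2 and 35.8% higher in SKMEL30. The libraries of the lines did not overlap for IL6R, SOCS3, STAT3 and IL6ST and overlapped for CLCF1 and LIFR, where 78.3% of all genes did not overlap, so these calls say little about the members beyond the sizes.

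IL6R stood at -3.48 ± 0.06 on the log2 scale in SKMEL2 against SKMEL30 (edgeR adjusted p = 5.47e-20), which is 11.1-fold lower. OSMR summed to 1185 counts over the 3 uninduced SKMEL2 libraries and 2 over the 3 uninduced SKMEL30 libraries, a ratio of 549 after scaling to depth (exact 95% interval 152 to 4535, counting error only). SOCS3 was 4.18-fold lower in SKMEL2 (-2.06 ± 0.17, edgeR adjusted p = 1.8e-09). STAT3 and IL6ST differed by less, at -0.55 ± 0.06 and -0.53 ± 0.05 (edgeR adjusted p = 5.58e-08 and 7.57e-09). LIF, given without a test, was 3.03-fold lower in SKMEL2 (-1.60 ± 0.07).

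The calls for the 2 scarce members were not firm. CLCF1 stood at -0.88 ± 0.40 (edgeR adjusted p = 0.0498) and kept its call in 4 of 13 alternatives. It was lost in DESeq2 (adjusted p = 0.116), with RLE factors (0.0522), without the filter (0.057), after thinning (0.0897), without the 2 libraries with the most keratin RNA (0.063), and without SKMEL2 uninduced replicate 1 or 2 or SKMEL30 uninduced replicate 1 or 3, with an edgeR adjusted p of up to 0.217. LIFR stood at 0.86 ± 0.35 (edgeR adjusted p = 0.0338) and kept its call in 6 of 13 alternatives. It was lost in DESeq2 (adjusted p = 0.0918), without the filter (0.0706), with only the groups compared (0.0673), and without SKMEL2 uninduced replicate 1 or 3 or SKMEL30 uninduced replicate 1 or 2. Without SKMEL2 uninduced replicate 3, which held 34 counts of LIFR where the other two held 17 and 11, its value was 0.43 (edgeR adjusted p = 0.315).

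Per kilobase of transcript, the order of the members differed between the lines. In uninduced SKMEL2 IL6ST came first at 22.8 ± 1.11 CPM per kb (SD, n = 3) and STAT3 next at 13.3 ± 0.411. LIF (3.76 ± 0.333) and OSMR (3.55 ± 0.297) overlapped, and IL6R followed at 3.23 ± 0.101. SOCS3 and CLCF1 overlapped at 0.457 and 0.342, and IL11, LIFR and IL6 made up the end of the order at 0.200, 0.0958 and 0.0744, each overlapping its neighbour.

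In uninduced SKMEL30 IL6R came first at 35.9 ± 0.866 CPM per kb, above IL6ST at 32.9 ± 0.791, STAT3 at 19.5 ± 0.293 and LIF at 11.5 ± 0.613, with no overlap between neighbours. SOCS3 stood at 1.93 ± 0.189 and CLCF1 at 0.646 ± 0.206. IL11 (0.106), IL6 (0.0864) and LIFR (0.0534) overlapped their neighbours, and OSMR came last at 0.00658. In both lines LIFR, the chain that LIF binds, stood far below IL6ST, the chain it pairs with.

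**Figure D3:**
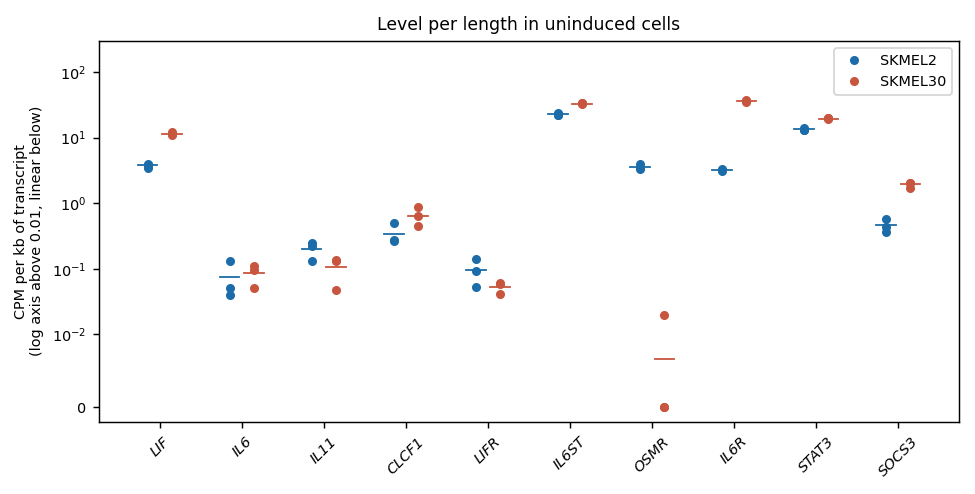
Level per kilobase of transcript in the 3 uninduced libraries of each line, on an axis that is logarithmic above 0.01 and linear below it; points are libraries and lines are means. IL6R sits at 35.9 CPM per kb in SKMEL30 and 3.23 in SKMEL2, and OSMR at 3.55 in SKMEL2 and near 0 in SKMEL30.

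The remaining ligands and receptors of the family were measured in a list of 11 genes. OSM, the gene of oncostatin M and the neighbour of LIF on chromosome 22, had 0 to 1 counts in every library, and CNTFR, the receptor chain for CLCF1 and ciliary neurotrophic factor, 0 to 2. In the baseline comparison, in which 75.9% of all genes passed, 4 of the 5 tested genes passed, 2 in each direction, and the calls in the lists that follow are to be read beside the same share. CNTF, the ciliary neurotrophic factor, was lower in SKMEL2 at -2.10 ± 0.19, and IL11RA, the IL11 receptor, at -1.65 ± 0.26 (edgeR adjusted p = 5.11e-09 and 9.47e-06). IL31RA, the receptor chain that pairs with OSMR to bind IL31, had 42 counts over the uninduced SKMEL2 libraries and 1 over those of SKMEL30. The ratio was 38.9 (exact 95% interval 6.61 to 1572), so both chains of that receptor were higher in SKMEL2. IL31RA is counted among the 4 that passed, but it came past the filter on low counts only through SKMEL2, where it is high. Nothing is read from its call.

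The JAK kinases, STAT proteins and adaptors differed between the lines in all 9 genes tested, 2 higher and 7 lower in SKMEL2, with a median of -0.44 where that of all genes was 0.05. JAK2, a kinase bound to gp130, was higher in SKMEL2 at 2.11 ± 0.10, with means of 49.1 against 11.4 CPM. STAT5A, a transcription factor of the same family as STAT3, was lower at -1.92 ± 0.14. Of the negative regulators, 6 of 7 passed, 2 higher and 4 lower (median -0.86), led by SOCS2 at -1.93 ± 0.09, CISH at -1.21 ± 0.27 and the phosphatase PTPN1 at -0.86 ± 0.04. Within the lines, 6 genes of this list passed the filter on low counts in SKMEL2 and 7 in SKMEL30. The count and median thus include a gene that came past it only through SKMEL30, and nothing is read from them.

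Of 19 STAT3 target genes tested, 13 were lower in SKMEL2, 2 were higher and 4 did not pass, with a median of -0.73. Over all genes 35.8% were called lower in SKMEL2 and 40.1% higher, with a median of 0.05. Whether the list departs from all genes was not tested. FOSL1, a subunit of AP-1, stood at -1.48 ± 0.15 and CEBPD, a transcription factor of the acute phase response, at -1.35 ± 0.21. SERPINA3, an acute phase protease inhibitor, went the other way at 5.20 ± 0.27, with means of 78.5 CPM in SKMEL2 and 2.15 CPM in SKMEL30. Of the NF-kB targets and the cytokines made with IL6, all 11 tested passed, 4 higher and 7 lower (median -1.18). Within the lines, 9 genes of this list passed the filter on low counts in SKMEL2 and 11 in SKMEL30. A gene that came past it only through the line where it is high, as CCL2 did, was bound to differ, so nothing is read from this count. BIRC3, an inhibitor of apoptosis, was higher at 3.42 ± 0.18, and TNFAIP3, an inhibitor of NF-kB, was lower at -2.99 ± 0.08. The chemokine gene CCL2 had 1 count over the uninduced SKMEL2 libraries and 84 over those of SKMEL30, a ratio of 0.0110 (exact 95% interval 0.000276 to 0.0631). All values of this paragraph are from uninduced cells, and each named gene other than CCL2, which is given by its counts, passed edgeR's test.

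**Figure D4:**
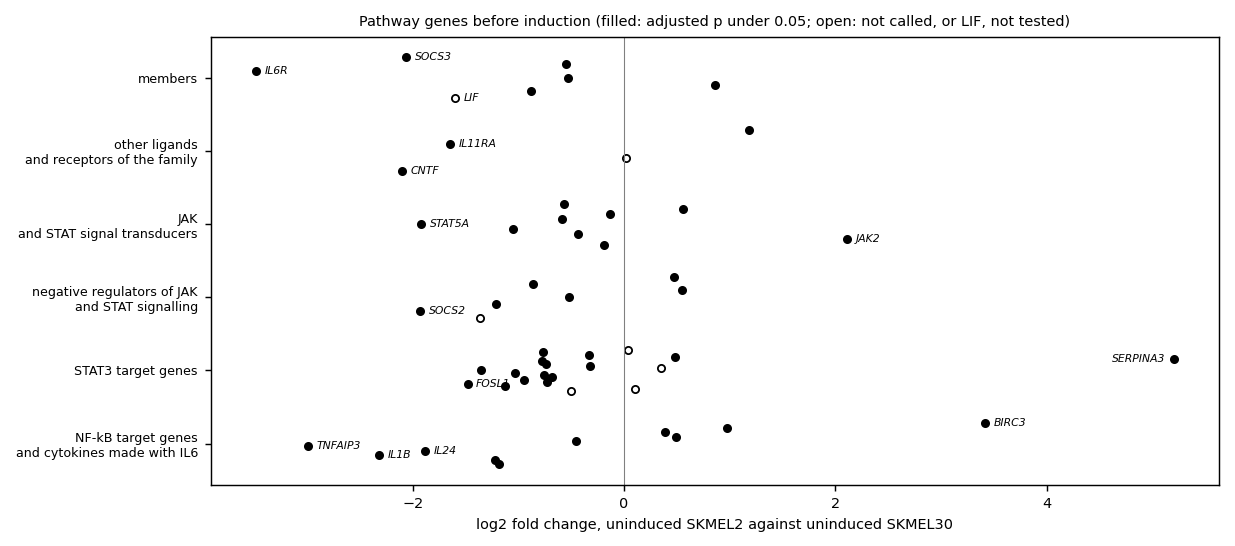
Log2 fold change of uninduced SKMEL2 against uninduced SKMEL30 for the genes of 6 lists, 1 point a gene, filled where the adjusted p is under 0.05; LIF is open because it was not tested, and OSMR, IL31RA and CCL2 are not drawn because a group held 2 counts or fewer. Points to the left of 0 are higher in SKMEL30, where 13 of 19 STAT3 targets lie as calls, beside 35.8% of all genes. Whether a list departs from all genes was not tested.

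On induction 1 gene of these lists was called. CCND1, the gene of cyclin D1 and a member of the list of STAT3 targets, fell by 0.20 ± 0.02 on the log2 scale in SKMEL30 at 18 h (edgeR adjusted p = 0.000936), from 1399, 1415 and 1421 CPM to 1207, 1239 and 1255 CPM. The call was lost when all 18 libraries were fitted together (adjusted p = 0.252). In SKMEL2 at 18 h CCND1 stood at -0.14 ± 0.06 (edgeR adjusted p = 0.987), and the difference between the lines was 0.06 ± 0.06 (edgeR adjusted p = 0.922). None of the other 18 STAT3 targets passed at that time, and none of the 19 passed in the other 3 comparisons. No gene of the family, transducer, negative regulator or NF-kB list passed in any of the 4. Of all genes, 0.0124% were called at each time in SKMEL2, and 0.206% at 6 h and 0.293% at 18 h in SKMEL30. At these shares a count of 0 in lists of this size is no result about them.

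The genes whose pattern was most like that of LIF were found by the correlation of log2 CPM over the 18 libraries after the mean of each line was removed, among 14078 genes. This likeness uses the libraries that chose LIF, so it is a description with no p. Among the 5 highest were ANXA1 (r = 0.83), TIMP3 (0.80), PRKCZ (0.77) and MRPL45 (0.77). ANXA1, an inhibitor of phospholipase and of inflammation, measured 111, 116 and 102 CPM in uninduced SKMEL2 and 91.8, 93.6 and 88.0 CPM at 18 h, against 80.7, 83.2 and 83.5 CPM and 91.5, 90.2 and 92.7 CPM in SKMEL30. TIMP3, an inhibitor of matrix metalloproteinases, measured 203, 215 and 218 CPM in uninduced SKMEL2 and 178, 183 and 201 CPM at 18 h, and went from 1013, 1020 and 1035 CPM to 1077, 1078 and 1111 CPM in SKMEL30. For both genes the 18 h libraries lay below the uninduced libraries in SKMEL2 and above them in SKMEL30. Both were picked by likeness to LIF over these libraries, so nothing is read from this separation. Between these groups 14.3% of all genes did not overlap in SKMEL2 and 16.0% in SKMEL30.

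The members were not among the genes most like LIF. LIFR had r = 0.19, IL6ST 0.10, IL6R 0.08, STAT3 -0.05, CLCF1 -0.21 and SOCS3 -0.30, and the best of them ranked 3312 of 14078. SOCS3 had r = -0.13 within SKMEL2 and -0.62 within SKMEL30, each over 9 libraries of 1 line that differ in depth.

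**Figure D5:**
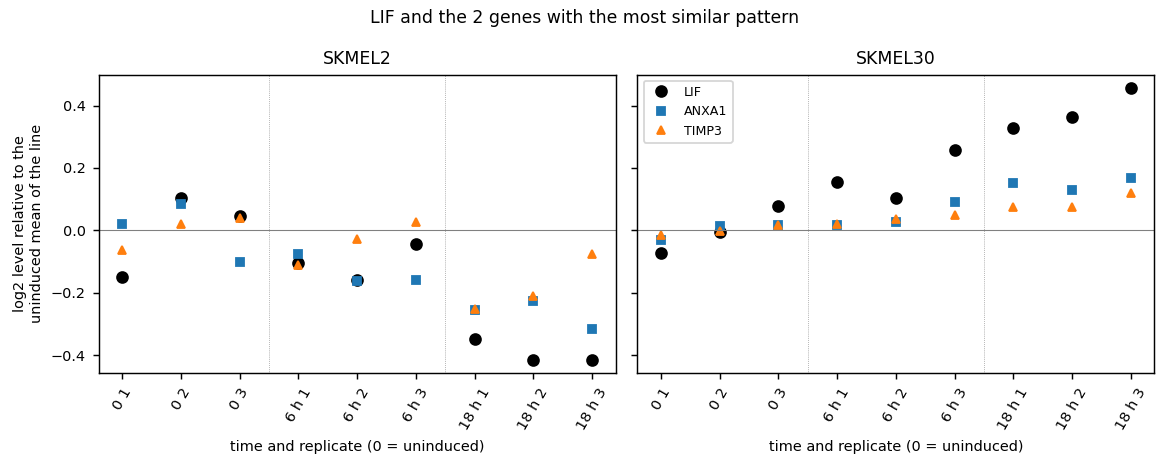
Log2 level of LIF and the 2 genes most like it, ANXA1 and TIMP3, in each library, relative to the uninduced mean of the line, in SKMEL2 (left) and SKMEL30 (right); each symbol is a gene and each column a library. The symbols fall below 0 at 18 h in SKMEL2 and rise above it in SKMEL30, with LIF, whose r with ANXA1 was 0.83, moving farthest.

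Genes that overlap members on the opposite strand could share their reads, since the strand setting of the counting is not given in the sources used here. LIF-AS1 had 0 to 2 counts and LIF-AS2 0 to 11 counts per library, where LIF had 197 to 1134. IL6-AS1 held 0 to 1 counts, LIFR-AS1 0 to 2, IL6R-AS1 0 to 6 and the pseudogene IL6STP1 0 to 11. OSMR-AS1 did not match by symbol.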

How the data were processed

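RNA was sequenced from the SKMEL2 and SKMEL30 lines with the pTRIPZ-PPP2R3B vector, uninduced or induced for 6 or 18 h. The labels give 18 h for the later time, and the study's text a slightly shorter one. The authors made mRNA libraries with the KAPA HyperPrep kit, used Cutadapt 1.9.1 to trim the 43-base reads and STAR 2.5.2a to align to Ensembl release 86 (GRCh38). They merged sequencing lanes with Samtools 1.8 and estimated counts with RSEM 1.3.0. The submitters' processing notes list Trimmomatic 0.36, cutadapt 1.5 and STAR 2.2.2a instead. The deposited values are expected counts per gene, not scaled for depth, and 12.3% are fractional, since a read that maps to more than 1 gene is divided among them.

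Expected counts were rounded. In edgeR 4.0.16 (R 4.3.3, limma 3.58.1), genes were filtered by filterByExpr, scaled by TMM and tested with glmQLFTest, the 9 libraries of a line together (16120 genes in SKMEL2, 15026 in SKMEL30), or all 18 (17133 genes) for differences between lines. A call is a Benjamini-Hochberg adjusted p under 0.05 over all genes tested, and the standard error is the log2 fold change divided by the square root of F. Replicate variation, as the common biological coefficient, came to 8.36% (SKMEL2) and 4.11% (SKMEL30). Levels per kb use GRCh37 canonical transcript lengths, matched by gene ID. Coordinates and promoter windows are from RefSeq on GRCh38.p14. Of 101 listed genes, 99 matched a symbol. The members and lists were chosen with earlier results of these data known. Genes named are the members, PPP2R3B, list genes called on induction, up to 3 called genes per list with the largest baseline change, and the 5 most like LIF. Under this rule 2 genes are not reported here. OSM, CNTFR, TYRP1 and KRT5 are outside this rule and were picked with their values known. Alternatives were DESeq2 1.42.0, RLE factors, no filter, a minimum of 10 counts per library, a fit of only the groups compared, all 18 libraries in a single fit, thinning to the smallest total, the replicate number as a block, and each library left out in turn. The fits without the 2 SKMEL30 libraries with the most keratin RNA were added after seeing the data.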

Additional observations from a re-analysis of the deposited data

Results flagged for a closer look

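The 6 induced libraries of a line, 3 at each time, were searched for a library standing apart in each of the 10 genes, 20 sets in all. In 3 sets the gap of the highest library to its nearest neighbour passed Dixon's critical value for its share of the range, where chance flags about 1.00. OSMR in SKMEL30 6 h replicate 3 stood apart with 16 counts (a gap of 0.856 of the range), in the library with 803 counts of KRT5. STAT3 in SKMEL2 6 h replicate 3 stood apart at 80.4 CPM (0.645). SOCS3 in SKMEL2 6 h replicate 2 stood apart at 1.67 CPM (0.808).

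LIF fell in all 3 SKMEL2 libraries and rose in all 3 SKMEL30 libraries at 18 h, a difference of -0.78 on the log2 scale. This is the value by which the genes were chosen, so it was not tested here.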

How the results depend on the processing

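No member other than LIF was called on induction in any of the 4 comparisons under any alternative, and LIF kept its direction in every fit. With single libraries left out its 18 h change lay between -0.46 and -0.35 in SKMEL2, and in SKMEL30 between 0.35 and 0.42. The 18 h direction of LIF in these same libraries chose the genes, so nothing is read from its being kept. Without a filter on low counts 1 member, OSMR, was called for the difference between lines at 6 h, which rests on the 16 counts of SKMEL30 6 h replicate 3, the library with the most keratin RNA. At baseline the main fit called 7 members when OSMR, whose call is not read, is counted. Set beside these 7, 4 members were called with at least 10 counts in every library, which removes CLCF1, LIFR and OSMR. With single libraries left out 5 to 6 were called. Counts over all genes moved more. At 6 h in SKMEL2 (2 calls) they were 7 in DESeq2, 158 without the filter, 6 with all 18 libraries in a single fit and 2 to 5 with single libraries left out. At 18 h in SKMEL2 (2 calls) they were 16, 168, 7 and 2 to 2, with 9 when only the groups compared were fitted and 7 with the replicate number as a block. In SKMEL30 at 6 h (31 calls) they were 321 without the filter, 5 in the single fit, 16 without the 2 libraries with the most keratin RNA and 16 to 33 with single libraries left out, and at 18 h (44 calls) 69 in DESeq2, 359, 9, 28 and 25 to 30. The difference between lines gave 237 without the filter and 0 to 1 with single libraries left out at 6 h, and 2 in DESeq2, 216 without the filter and 1 to 2 at 18 h. The causes were not tested.

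Of 1068 values of single genes under alternatives, 1021 kept direction and side of the threshold, 17 lost their call and 30 changed sign, all 30 at uncalled values of at most 0.35 in size. Thinning turned the 6 h difference of LIFR to -0.05, and dropping the filter turned the 18 h difference of IL6R to -0.00. With single libraries left out, LIFR ran from -0.06 to 0.67 at 6 h and from -0.41 to 0.31 at 18 h in SKMEL2, CLCF1 from -0.15 to 0.49, OSMR from -0.10 to 0.02 and SOCS3 from -0.11 to 0.26 at 18 h in SKMEL2, and IL6ST from -0.02 to 0.04, STAT3 from -0.05 to 0.00 and SOCS3 from -0.11 to 0.01 at 6 h in SKMEL30. The differences between lines ran from -0.21 to 0.45 for CLCF1 and from -0.23 to 0.49 for LIFR at 6 h, and from -0.65 to 0.07 for LIFR and from -0.03 to 0.08 for IL6R at 18 h.

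Deviations of same-numbered libraries correlated little. Above 0.1 were 3 of 9 correlations for SKMEL2 (range -0.13 to 0.17) and 1 of 9 for SKMEL30 (range -0.02 to 0.12). Libraries with different numbers were not set beside them, so these values do not decide whether the numbers pair the samples. With the replicate block 0 members were called on induction, and the SKMEL2 18 h count over all genes was 7 in place of 2. Depth limits IL6, IL11, LIFR, CLCF1 and, in SKMEL30, OSMR, and the same lines were not measured without the vector.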
